A study of Mus musculus with 60 samples.

Results

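The genes described here are the 2 corticosteroid receptor genes Nr3c1 and Nr3c2 and 8 genes that glucocorticoids are known to induce, Fkbp5, Sgk1, Zbtb16, Tsc22d3, Hif3a, Ddit4, Plin4 and Sult1a1. They are 10 of the 18088 genes in the deposited table, chosen by name for their known roles, with earlier results of these data known, and all 10 passed the filter on low values that left 17807 genes to test. RNA was sequenced from the prefrontal cortex of 60 C57BL/6J mice, with 5 libraries in each of 12 groups formed by genotype, treatment and sex. Wild-type mice (WT) were compared with Chd8+/N2373K mice (Het), heterozygous for the N2373K allele of the chromatin remodeler gene Chd8. Each genotype received vehicle, the mood stabilizer lithium or fluoxetine, which blocks the reuptake of serotonin. In all 12 groups the pups were reached through the mother's milk from postnatal day 3 to 24, a period of 3 weeks, and the cortex was taken on postnatal day 25. The vehicle mice therefore shared the nursing route and the age with the drug-treated mice, and Het and WT mice shared the strain. The labels name no litter or dam, so p-values measure the spread between these libraries. Every library was treated as independent, and p-values could be too small where mice of a group shared a dam.

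Corticosterone, the main glucocorticoid of the mouse, acts on brain cells through the glucocorticoid receptor (Nr3c1) and the mineralocorticoid receptor (Nr3c2). A receptor held by chaperones in the cytoplasm binds the hormone, moves to the nucleus and activates genes near palindromic response elements. Fkbp5 and Tsc22d3 are textbook targets of this pathway, and the Fkbp5 protein in turn lowers the affinity of the receptor for its ligand. Hormone levels were not among the data analysed here.

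On GRCm38 with GENCODE release 21 gene models, Nr3c1 lies on chromosome 18 (39410545 to 39519421, minus strand) and Nr3c2 on chromosome 8 (76899442 to 77245012, plus strand). Fkbp5, a co-chaperone of the receptor, lies on chromosome 17 (28399094 to 28517527, minus strand), as does Plin4, a coat protein of lipid droplets (56100591 to 56109803, minus strand). Sgk1, a serum- and glucocorticoid-regulated kinase, lies on chromosome 10 (21882184 to 21999903, plus strand), as does Ddit4, an inhibitor of mTORC1 signaling (59949669 to 59951834, minus strand). Zbtb16, a zinc finger transcription factor, lies on chromosome 9 (48654297 to 48836222, minus strand). Tsc22d3, which encodes the leucine zipper protein GILZ, lies on chromosome X (140539528 to 140600659, minus strand). Hif3a, a hypoxia-inducible factor subunit, and Sult1a1, a cytosolic sulfotransferase of phenols, lie on chromosome 7 (17031507 to 17062427 and 126672865 to 126676432, both minus strand).

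Normalized counts divided by the summed exon length of each gene, in kilobases, gave the order of levels over the 60 libraries. Ddit4 was highest at a mean of 724 normalized counts per kilobase, followed by Tsc22d3 at 482, Nr3c1 at 381 and Sgk1 at 359. Sult1a1 stood at 228, Zbtb16 at 216, Nr3c2 at 148 and Fkbp5 at 127. Hif3a at 47.6 and Plin4 at 6.68 per kilobase were lowest. Gene length models differ between isoforms, so neighbors in this order such as Nr3c1 and Sgk1 or Sult1a1 and Zbtb16 are not distinguished by it. Of the 10 genes, 5 overlap a gene on the opposite strand. Plin4 and Sult1a1 overlap the protein-coding genes Hdgfl2 and Sgf29, Hif3a overlaps 4833404L02Rik, Fkbp5 overlaps the antisense gene AC154912.1 and Gm22146, and Nr3c2 overlaps Gm10649 and Gm24838. Overlap was taken over whole gene spans, and shared exons were not checked. The library kit marks strand but the sources do not say whether the counting used it. Reads from any stretch that both genes of a pair transcribe may therefore not be told apart. Hdgfl2 differed from vehicle by −0.01 to 0.10 and Sgf29 by −0.02 to 0.19 on the log2 scale in the 4 drug comparisons, none with an adjusted p under 0.05 (limma).

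Reads could be recovered for 51 libraries and ran from 24.05 to 31.65 M per library, with a median of 27.91 M. Chd8 stood at 2671 ± 134 normalized counts in the 30 Het libraries and at 3094 ± 91.7 in the 30 WT libraries (SD). The 10 cortical excitatory neuron markers were present in every library, led by Slc17a7 at 34169 to 54206 normalized counts. The score of 10 olfactory bulb and neuroblast markers ran from −2.22 to 3.13 over the libraries. A limit of 1, chosen after the scores were seen, marked 16 libraries as high. The nearest scores below and above the limit were 0.78 and 1.17. The 16 were 5 of the 10 Het vehicle libraries, 5 Het fluoxetine, 3 WT vehicle, 2 WT lithium and 1 Het lithium library. Of the 36 calls among the 10 genes over all comparisons and both single sexes, 18 were lost without these libraries, and the genes that lost a call are named with each comparison. In tissue samples, fewer cells of a type and less RNA per cell cannot be told apart.

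Nr3c1 mRNA was lower with each drug in each genotype. Among WT mice the lowest, median and highest values of the 10 vehicle libraries were 2891, 3333 and 3588 normalized counts, against 2434, 2785 and 2928 in the fluoxetine group. In the WT lithium group they were 2526, 2908 and 3148. The Het vehicle libraries had 2850, 3158 and 3450, the Het fluoxetine libraries 2535, 2705 and 3215, and the Het lithium libraries 2665, 2752 and 3013. The groups overlapped at their edges, and 9 of 10 WT fluoxetine and 8 of 10 Het fluoxetine libraries lay below every vehicle library of their genotype. The log2 fold change against vehicle was −0.24 ± 0.04 (SE; adjusted p = 6.77e-05) with fluoxetine in WT and −0.19 ± 0.04 (adjusted p = 0.000328) in Het mice. With lithium it was −0.18 ± 0.04 (adjusted p = 0.0137) in WT and −0.17 ± 0.04 (adjusted p = 0.00615) in Het mice. The folds were 0.846 and 0.874 with fluoxetine and 0.885 and 0.886 with lithium, and both drugs were compared with the same vehicle libraries. Nr3c1 was the 1 member called lower in each of these comparisons. Of all genes tested, 5.06% were called lower with fluoxetine and 1.07% with lithium in WT mice, and 16% and 3.84% in Het mice. The lithium difference in WT mice was −0.14 (adjusted p = 0.146, limma) when the 9 libraries without recovered reads were left out, and −0.12 (adjusted p = 0.129) without the 16 libraries high in olfactory bulb markers.

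Nr3c2 did not pass the test in any comparison. Its means were 1006 ± 75.6, 961 ± 69.5 and 918 ± 59.6 normalized counts (SD, n = 10) in WT mice with vehicle, fluoxetine and lithium, and 951 ± 73.1, 1007 ± 123 and 920 ± 101 in Het mice. The drug differences ran from −0.13 to 0.08 on the log2 scale, and their 95% intervals reached from −0.25 to 0.19. Of both receptors the mineralocorticoid receptor binds corticosterone with the higher affinity. Its 6 groups overlapped over 891 to 1024 normalized counts.

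**Figure D1:**
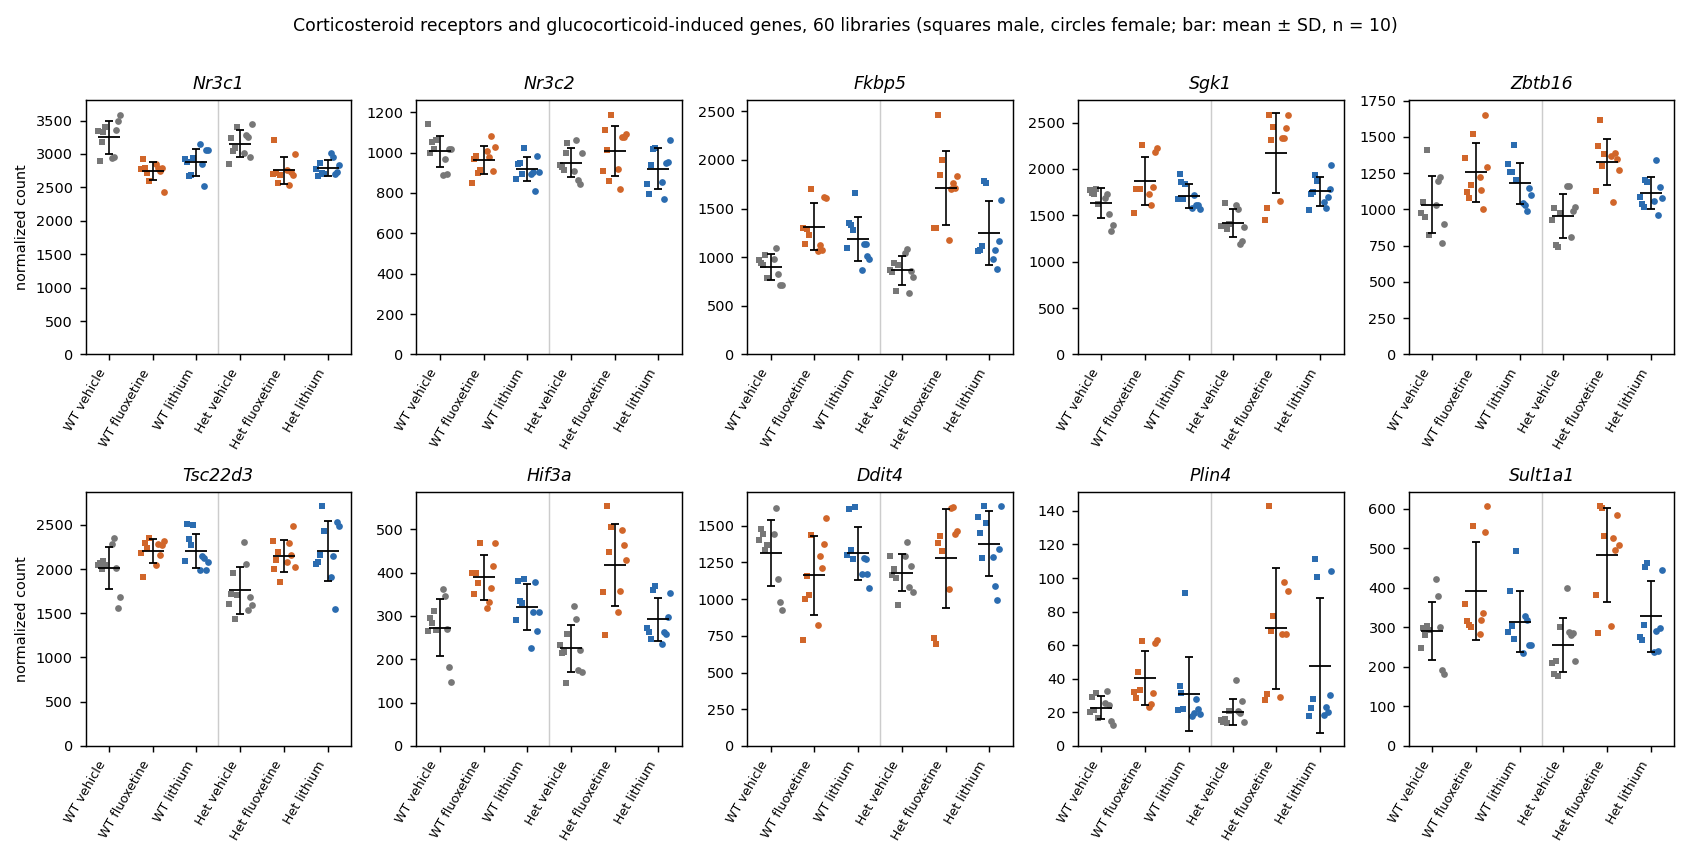
Normalized counts of the 10 genes (vertical axes, each from 0) in the 6 combinations of genotype and treatment (horizontal axes), with 1 point per library, squares for males, circles for females, and the mean ± SD of 10 libraries. Fkbp5 in Het mice lies between 637 and 1081 with vehicle and between 1178 and 2466 with fluoxetine, and Nr3c1 is lower in all 4 drug groups than in vehicle.

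Promoter windows are shown because the 8 induced genes are known as receptor targets and 7 of them moved together in 1 comparison. RefSeq start sites on GRCm38.p6 gave windows of 250 bases before to 50 bases after the start for 8 of the 10 genes, 15 windows in all. No window of Zbtb16 or Nr3c1 was searched. Windows on the chromosome of Nr3c1 were left out beforehand, so the lack of an Nr3c1 window is not a finding about RefSeq. The windows were searched on both strands for ACANNNTGT, the core of the palindromic response element, for the single arm AGAACA, and for the whole palindrome, in which that arm is followed after 3 bases by its reverse complement and which contains both others. The last search was added after the sequences were seen. Of 32851 mouse windows, 6.85% held the core, 19.0% the single arm and 0.00913%, or 3 windows, the whole palindrome. Among the genes described here the core was in 2 windows of 1 gene, Sgk1, and the single arm in 5 windows of 3 genes, Sgk1, Tsc22d3 and Sult1a1. The fifth of 6 Sgk1 windows (chr10:21993640-21993939, plus strand) held the whole palindrome, starting 189 bases before the start site. A Tsc22d3 window (chrX:140600473-140600772, minus strand) held the single arm 185 bases before its start, and the Sult1a1 window (chr7:126676369-126676668, minus strand) held it 212 and 34 bases before. The Fkbp5 window (chr17:28486100-28486399, minus strand) held none of these letters. A match is a description of the sequence and not a binding site. The 4 windows follow 5′ to 3′ on the strand of the gene, with matches in capitals.
Sgk1: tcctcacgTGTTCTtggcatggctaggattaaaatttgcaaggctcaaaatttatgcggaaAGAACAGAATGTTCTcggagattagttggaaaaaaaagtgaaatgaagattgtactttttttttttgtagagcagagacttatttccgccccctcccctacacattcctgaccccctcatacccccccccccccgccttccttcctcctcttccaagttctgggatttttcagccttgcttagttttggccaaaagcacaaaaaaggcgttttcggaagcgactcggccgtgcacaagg
Tsc22d3: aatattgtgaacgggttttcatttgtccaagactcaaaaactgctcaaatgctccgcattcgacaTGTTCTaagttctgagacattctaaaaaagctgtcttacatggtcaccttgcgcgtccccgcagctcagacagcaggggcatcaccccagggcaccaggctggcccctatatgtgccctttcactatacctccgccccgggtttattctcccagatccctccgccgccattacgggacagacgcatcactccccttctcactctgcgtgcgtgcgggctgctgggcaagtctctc
Sult1a1: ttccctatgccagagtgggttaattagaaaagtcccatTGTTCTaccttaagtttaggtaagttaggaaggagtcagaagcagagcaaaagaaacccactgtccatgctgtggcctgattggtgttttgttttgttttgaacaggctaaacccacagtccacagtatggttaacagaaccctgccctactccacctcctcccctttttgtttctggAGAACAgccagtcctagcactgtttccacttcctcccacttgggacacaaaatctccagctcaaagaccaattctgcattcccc
Fkbp5: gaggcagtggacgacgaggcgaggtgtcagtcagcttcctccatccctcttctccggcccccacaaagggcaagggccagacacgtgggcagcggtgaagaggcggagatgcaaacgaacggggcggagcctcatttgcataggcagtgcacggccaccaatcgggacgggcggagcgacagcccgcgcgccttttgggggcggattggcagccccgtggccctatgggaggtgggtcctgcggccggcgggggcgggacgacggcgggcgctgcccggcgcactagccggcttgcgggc

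With fluoxetine, 7 of the 8 induced genes were higher in Het mice, where 16.9% of all genes were called higher. Their median log2 fold change was 0.74, against 0.01 over all genes tested. The 3 genes called higher in WT mice were Fkbp5, Hif3a and Zbtb16, where 3.14% of all genes were called higher, and the median of the 8 was 0.35. In Het mice 7 of the 10 fluoxetine libraries had at least 5 of the 8 genes above every Het vehicle library, and in WT mice 3 of 10 did. The share of all genes above every vehicle library was not computed. The 8 genes also varied together within groups, with a median r of 0.67 over their pairs, so they are not separate observations. These WT and Het comparisons use separate vehicle libraries.

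Fkbp5 was the gene whose groups separated fully. The lowest, median and highest values were 637, 865 and 1081 normalized counts in Het vehicle libraries and 1178, 1735 and 2466 in Het fluoxetine libraries. All 10 Het fluoxetine libraries thus lay above all 10 of vehicle, a 1.96-fold difference (log2 0.97 ± 0.12, adjusted p = 3.52e-08). In WT mice the values were 710, 934 and 1090 with vehicle and 1066, 1259 and 1701 with fluoxetine. There 8 of 10 fluoxetine libraries lay above all of vehicle, a 1.46-fold difference (log2 0.54 ± 0.12, adjusted p = 0.00191). Without the 16 libraries high in olfactory bulb markers the WT value was 0.46 (adjusted p = 0.0348).

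Plin4, at the lowest level, had the largest fold of the 8 genes in Het mice. Its Het vehicle libraries ran from 13.6 to 39.2 normalized counts with a median of 17.7, and its Het fluoxetine libraries from 27.3 to 143 with a median of 67.6. Of the fluoxetine libraries 7 lay above all of vehicle, and male replicates 1 and 2 and female replicate 1 lay within the vehicle range. The difference was 3.11-fold (log2 1.64 ± 0.31, adjusted p = 5.11e-05). In WT mice Plin4 ran from 12.4 to 32.5 with vehicle and 22.9 to 63.0 with fluoxetine, with a log2 difference of 0.77 ± 0.31 (adjusted p = 0.112).

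Sgk1, Hif3a and Sult1a1 were higher in Het mice by 1.51, 1.85 and 1.88-fold. Sgk1 had a lowest, median and highest value of 1189, 1386 and 1637 normalized counts with vehicle and 1448, 2334 and 2585 with fluoxetine (log2 0.60 ± 0.08, adjusted p = 2.27e-07). Male replicates 1 and 2 were again the lowest of the fluoxetine group, within the vehicle range. Hif3a had 146, 219 and 322 with vehicle and 257, 439 and 554 with fluoxetine (log2 0.89 ± 0.14, adjusted p = 1.8e-06). Sult1a1 had 176, 248 and 400 with vehicle and 285, 517 and 607 with fluoxetine (log2 0.91 ± 0.16, adjusted p = 2.21e-05). In each of these genes 7 or 8 of the 10 fluoxetine libraries lay above all of vehicle. In WT mice Hif3a was higher by 0.54 ± 0.14 (adjusted p = 0.00636), from a median of 277 to 388, and this call was lost without the 16 libraries high in olfactory bulb markers (0.36, adjusted p = 0.0589). Sgk1 differed there by 0.19 ± 0.08 (adjusted p = 0.139) and Sult1a1 by 0.42 ± 0.16 (adjusted p = 0.0967).

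Zbtb16 and Tsc22d3 had smaller rises. Zbtb16 went from 955 ± 150 to 1327 ± 158 normalized counts (SD, n = 10) in Het mice, with 8 of 10 fluoxetine libraries above all of vehicle (log2 0.48 ± 0.09, adjusted p = 2.98e-05). In WT mice it went from 1032 ± 196 to 1254 ± 204, with 2 of 10 above all of vehicle (log2 0.29 ± 0.09, adjusted p = 0.0292). That WT call was lost in 8 of 20 fits that left out 1 library, WT fluoxetine male replicates 1 and 5 and female replicates 4 and 5 and WT vehicle male replicates 3 and 5 and female replicates 4 and 5, with log2 values of 0.24 to 0.28. It was also lost without the 16 libraries high in olfactory bulb markers (0.20, adjusted p = 0.269). Tsc22d3 went from 1762 ± 266 to 2151 ± 182 in Het mice, a rise in which 2 of 10 libraries exceeded all of vehicle (log2 0.30 ± 0.07, adjusted p = 0.00127). In WT mice its means were 2016 ± 238 and 2205 ± 138 (log2 0.14 ± 0.07, adjusted p = 0.247).

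Ddit4 was the exception among the 8 genes. Its Het means were 1181 ± 129 with vehicle and 1280 ± 337 with fluoxetine (log2 0.07 ± 0.12, adjusted p = 0.697), and its WT means 1313 ± 226 and 1162 ± 269 (log2 −0.19 ± 0.12, adjusted p = 0.324). The fluoxetine libraries were spread over 693 to 1631 normalized counts in Het mice, lower and higher than the vehicle range of 959 to 1391.

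**Figure D2:**
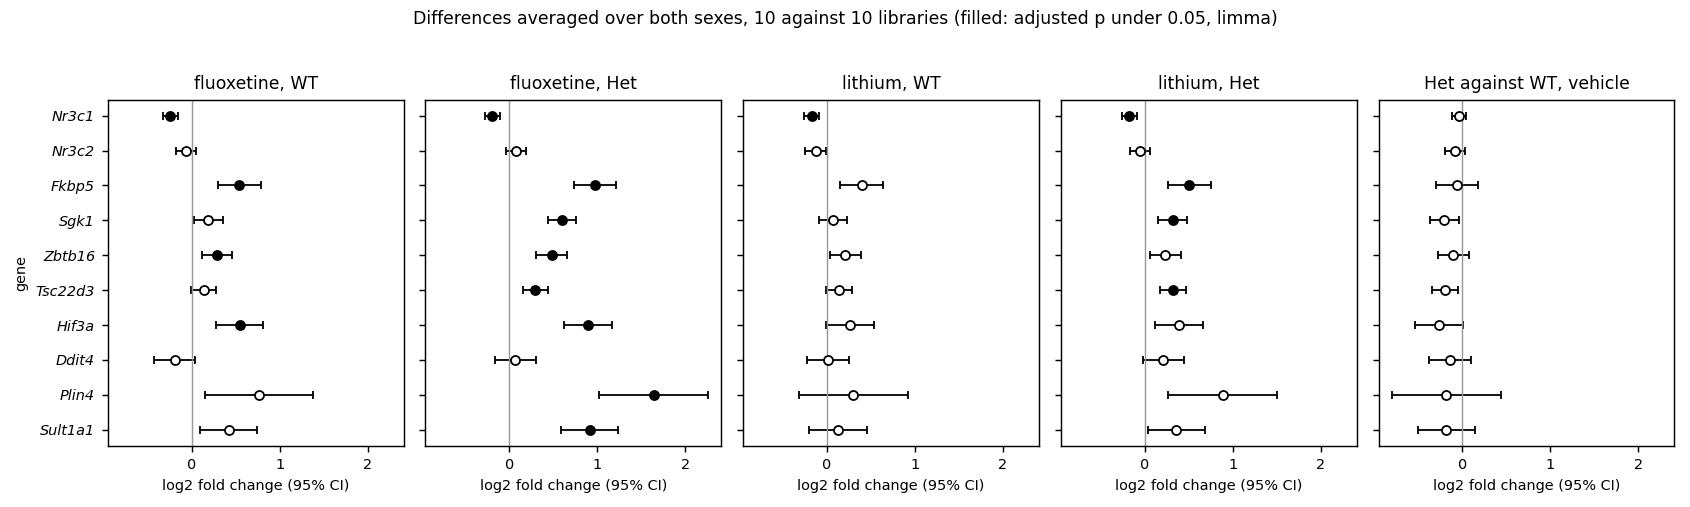
Log2 fold changes of the 10 genes (vertical axis) with 95% confidence intervals, averaged over both sexes, in the 4 drug comparisons and in Het against WT vehicle mice; filled points have an adjusted p under 0.05 (limma). Fluoxetine in Het mice has 8 filled points, with Plin4 at 1.64 and Nr3c1 at −0.19, and the genotype comparison has none.

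Within Het mice, 5 of the 7 induced genes were called higher with fluoxetine in each sex. In males Fkbp5 (1.04 ± 0.17), Sgk1, Zbtb16, Tsc22d3, Hif3a, Plin4 and Sult1a1 were called higher on the log2 scale, 7 of 8 induced genes against 12% of all genes. In females Fkbp5 (0.90 ± 0.17), Sgk1, Hif3a, Plin4 and Sult1a1 were called higher, 5 of 8 against 7.08%, while Zbtb16 stood at 0.33 ± 0.12 (adjusted p = 0.0639) and Tsc22d3 at 0.28 ± 0.10 (adjusted p = 0.0556). Nr3c1 was called lower in Het males (−0.17 ± 0.06) and females (−0.22 ± 0.06), where 10.7% and 8.04% of all genes were called lower. In WT mice Nr3c1 alone of the 10 was called in either sex, lower by 0.22 ± 0.06 in males and 0.26 ± 0.06 in females, where 1.09% and 1.9% of all genes were called lower. Without the 16 libraries high in olfactory bulb markers, the calls lost were Sgk1, Zbtb16, Tsc22d3, Plin4 and Sult1a1 in Het males (adjusted p = 0.0564 to 0.299), Nr3c1, Plin4 and Sult1a1 in Het females (adjusted p = 0.0786 to 0.267) and Nr3c1 in WT females (adjusted p = 0.128). The interaction of sex with fluoxetine was not called for any of the 10 in either genotype (limma). An unadjusted p under 0.05 was found for 1 of them in WT mice and for 0 in Het mice, against 2.68% and 12.2% of all genes. Of all genes, 0% in WT and 0.0112% in Het mice had an interaction called higher in females, and 0% in both had one called lower. The female minus male difference in the fluoxetine effect ran from −0.04 to 0.47 in WT and from −0.41 to 0.36 in Het mice.

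With lithium, 3 of the 8 induced genes were called higher in Het mice, where 5.3% of all genes were called higher. Fkbp5 had a lowest, median and highest value of 883, 1095 and 1785 normalized counts, against 637, 865 and 1081 with vehicle (log2 0.51 ± 0.12, adjusted p = 0.00534). Sgk1 had 1555, 1737 and 2045 against 1189, 1386 and 1637, with 8 of 10 libraries above all of vehicle (log2 0.32 ± 0.08, adjusted p = 0.0101). Tsc22d3 had 1552, 2155 and 2713 against 1438, 1700 and 2308 (log2 0.32 ± 0.07, adjusted p = 0.00359). The 3 calls were lost without the 16 libraries high in olfactory bulb markers, at 0.50 (adjusted p = 0.0525), 0.33 (adjusted p = 0.0525) and 0.28 (adjusted p = 0.0710). That fit kept 9 Het lithium and 5 Het vehicle libraries.

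Plin4 with lithium in Het mice split the group. Of its 10 libraries, male replicate 4 at 112, male replicate 5 at 101 and female replicate 5 at 104 normalized counts stood above the vehicle range of 13.6 to 39.2, and the other 7 lay within it at 17.9 to 30.02. The same 3 libraries held the highest Fkbp5 and Sult1a1 values of the group. The log2 difference of Plin4 was 0.88 ± 0.31 (adjusted p = 0.0575), and on the 51 libraries with recovered reads it was 1.58 (adjusted p = 0.00463, edgeR). The 51 libraries keep the 3 high ones and lack male replicates 1 and 3 and female replicate 1. Those left out are all among the 7 within the vehicle range, so the values 0.88 and 1.58 rest on different libraries. Zbtb16 (0.23 ± 0.09), Hif3a (0.39 ± 0.14), Ddit4 (0.21 ± 0.12) and Sult1a1 (0.36 ± 0.16) had adjusted p-values of 0.0548 to 0.253. In males alone Fkbp5 (0.65 ± 0.17) and Tsc22d3 (0.44 ± 0.10) were called, where 1.44% of all genes were called higher, and in females 0 of the 8 were called (limma), where 0.444% of all genes were called higher. Both male calls were lost without the 16 libraries high in olfactory bulb markers (adjusted p = 0.583 and 0.580). The interaction of sex with lithium in Het mice was −0.29 ± 0.24 for Fkbp5 and −0.23 ± 0.15 for Tsc22d3 (female minus male), and 0 of the 10 genes were called, with a lowest adjusted p of 0.843 (limma). It had an unadjusted p under 0.05 for 1 of the 10, Sult1a1, against 5.78% of all genes, of which 0% were called. In WT mice 0 of the 10 had such an unadjusted p, against 2.35% of all genes, and 0% were called.

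In WT mice lithium gave 0 called induced genes (limma, edgeR and DESeq2), with 2 of 8 at an unadjusted p under 0.05, Fkbp5 and Zbtb16. Of all genes, 1.9% were called higher and 17.7% had such an unadjusted p. Fkbp5 had the largest difference, 0.39 ± 0.12 (adjusted p = 0.0593), with values of 868, 1139 and 1658 against 710, 934 and 1090 with vehicle, and 7 of 10 libraries lay above all of vehicle. In a fit of only the compared groups it was called (adjusted p = 0.00713). WT lithium male replicate 5 held the highest Fkbp5 value of its group and the highest Plin4 value, 91.0 against 18.1 to 35.9 in the other 9 libraries.

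Without a drug, the genotypes did not differ in any of the 10 genes by the test. All 10 point estimates lay below 0, from −0.04 ± 0.04 for Nr3c1 to −0.27 ± 0.14 for Hif3a on the log2 scale. The number called was 0 with limma, edgeR and DESeq2, and 2 had an unadjusted p under 0.05, Tsc22d3 (−0.20 ± 0.07) and Sgk1 (−0.21 ± 0.08). Of all genes, 0.0225% were called higher, 0.0337% lower, and 7.79% had an unadjusted p under 0.05. Myelin markers had a median of −0.56 in the same comparison with 0 of 12 called, and their part in these estimates was not tested. The 95% interval of Fkbp5 was −0.30 to 0.18.

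Under fluoxetine, Fkbp5 was higher in Het than in WT mice by 0.37 ± 0.12 (adjusted p = 0.0486), with 7 of 10 Het libraries above every WT library. It was the 1 member called, where 3.45% of all genes were called higher, and the call was kept in 6 of 20 fits that left out 1 library, with adjusted p-values from 0.0177 to 0.132. It was lost without the 16 libraries high in olfactory bulb markers (0.47, adjusted p = 0.0887), of which 5 were Het fluoxetine and 0 WT fluoxetine libraries. In the same comparison the olfactory bulb markers had a median of 1.09 with 0 of 10 called. Single markers of other cells were called lower, among them Aif1 of microglia at −0.54 and Tie1 of endothelium at −0.42. Others were Pdgfrb and Rgs5 of mural cells at −0.28 and −0.40 and Col1a1 and Lum of leptomeninges at −0.57 and −0.56. Rorb and Cux2 of cortical neurons stood at −0.31 and −0.33. Not called were C1qa and C1qb of microglia at −0.06 each, Vtn and Tagln of mural cells at −0.11 and −0.03, and Igf2 of leptomeninges at −0.19. The share of all genes called lower in this comparison is not given here. The summed endothelial markers ran from 6450 to 8991 normalized counts in Het and from 7191 to 9549 in WT fluoxetine libraries, and the summed microglia markers from 6490 to 12854 and from 8995 to 12349. The part of these markers in the Fkbp5 difference was not tested. Sgk1 (0.20 ± 0.08) and Plin4 (0.69 ± 0.31) also had 7 of 10 Het libraries above every WT library and adjusted p-values of 0.116 and 0.152. Both were called in the 51 libraries with recovered reads (adjusted p = 0.0139 and 0.0295, edgeR). Those lack WT fluoxetine male replicate 5 and Het fluoxetine female replicate 1. The first held the highest Fkbp5 value of the WT fluoxetine libraries, 1701, and the second the lowest of the Het fluoxetine libraries, 1178. The edgeR and limma values thus rest on different libraries. The share of all genes called with edgeR in this comparison is not given here. Whether the fluoxetine effect itself differed between genotypes was tested by an interaction term. On the 51 libraries, without the fluoxetine libraries named above, it was called for 1 of the 10 genes with edgeR and 2 with DESeq2. Over all genes these fits called 415 higher and 570 lower with edgeR, and 705 and 760 with DESeq2. Limma called 465 and 510 on the 51 libraries, against 129 and 174 on all libraries. With limma on all libraries the interaction was called for 0 of the 10 genes, and 4 had an unadjusted p under 0.05. Of all genes 0.724% had a called higher interaction and 21.1% an unadjusted p under 0.05. These 4 were Sgk1 (0.41 ± 0.12, adjusted p = 0.0506), Fkbp5 (0.43 ± 0.17, adjusted p = 0.136), Sult1a1 (0.49 ± 0.23, adjusted p = 0.204) and Plin4 (0.87 ± 0.43, adjusted p = 0.237). Sgk1 was called in 12 of 40 fits that left out 1 library and not in the others, with log2 values over the 40 of 0.36 to 0.47. Among the markers Pdgfrb had a called interaction (−0.44, adjusted p = 0.0263), and its part was not tested. Under lithium 0 of the 10 genes were called between the genotypes (limma, edgeR and DESeq2) and 0 had an unadjusted p under 0.05, where 0% of all genes were called higher, 0.0393% lower, and 6.46% had such an unadjusted p. The genotype by lithium interaction was called for 0 of the 10 with each of the 3 tools and for 0% of all genes with limma. Sgk1 (0.25 ± 0.12) was the 1 member at an unadjusted p under 0.05, against 3.45% of all genes.

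The induced genes varied together between libraries of the same group. After removal of the 12 group means of log2(value + 1), Fkbp5 was compared with each of the other 9 genes over 60 libraries by permutation within groups (two-sided, 100000 permutations, adjusted over 9 relations). Pearson's r was 0.89 for Plin4, 0.85 for Sult1a1, 0.84 for Hif3a and 0.83 for Sgk1. It was 0.72 for Ddit4 and 0.65 for Tsc22d3. Each of these 6 genes had an unadjusted p of 1e-05, the smallest that these permutations can give. Zbtb16 had r = 0.52 (adjusted p = 0.000103). Nr3c1 went the other way at r = −0.37 (adjusted p = 0.00702), and Nr3c2 had r = 0.26 (adjusted p = 0.113). Spearman's rho was 0.90, 0.88, 0.89, 0.86, 0.76, 0.68, 0.48, −0.38 and 0.25 in the same order, with adjusted p-values of at most 0.0061 for all but Nr3c2 (0.111). Without the 2 libraries farthest from the median of Fkbp5, r was 0.87 for Plin4, 0.80 for Sgk1, 0.53 for Zbtb16 and −0.39 for Nr3c1. In the 44 libraries that remain without those high in olfactory bulb markers, r was 0.93, 0.78, 0.59 and −0.33 for these genes, and 0.42 for Nr3c2. Ddit4 thus followed Fkbp5 between libraries of a group, although neither drug gave it a called difference. Among the 28 pairs of the 8 genes r ran from 0.20 to 0.89, with a median of 0.67. The permutations test each r against 0, and the spread of r with Fkbp5 over all genes is not given here. The values are therefore not shown to be particular to these genes.

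**Figure D3:**
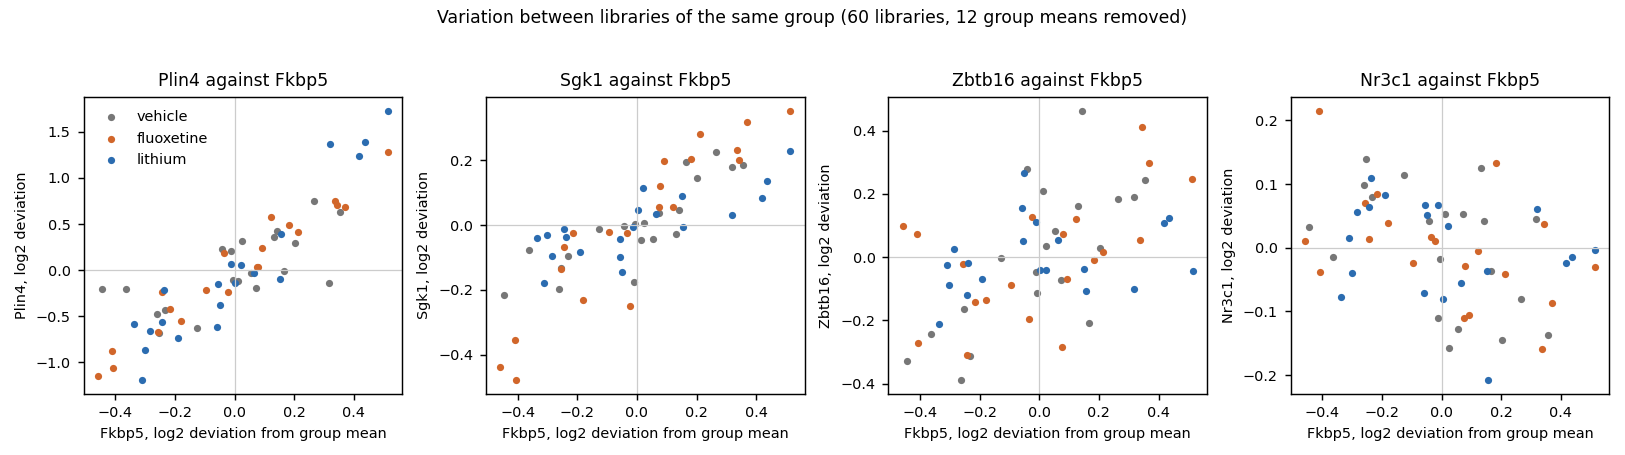
Deviation of each library from its group mean on the log2(value + 1) scale for Fkbp5 (horizontal axes) and for Plin4, Sgk1, Zbtb16 and Nr3c1 (vertical axes), with 1 point per library colored by treatment. The points rise together for Plin4 (r = 0.89), Sgk1 (0.83) and Zbtb16 (0.52) and fall for Nr3c1 (−0.37).

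Over the same deviations, 13687 genes with a mean of at least 50 normalized counts were ranked by Pearson's r with the mean of the 8 induced genes, as a description over 60 libraries that share their libraries with that mean. The 10 highest were Rhob (0.91), Wipf3 (0.91), Igfbp3 (0.87), Map3k6 (0.86), Mc4r (0.86), Slc25a27 (0.85), Rasd1 (0.85), Pik3ip1 (0.85), Sesn1 (0.84) and Angptl4 (0.84). All 10 were called higher with fluoxetine in Het mice, where 16.9% of all genes were. Rhob, a small GTPase, stood at 0.49 there and Mc4r, the melanocortin receptor, at 0.78, and Angptl4, an inhibitor of lipoprotein lipase, at 1.01. For Nr3c1 the 5 highest were Hipk3 (0.77), Fut9 (0.75), Cpd (0.73), Lpgat1 (0.73) and Fam160a2 (0.73). For Nr3c2 they were Fam19a2 (0.73), Htr2c (0.70), Xiap (0.70), Mdga2 (0.70) and Inpp1 (0.69).

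A further 25 genes known to be induced by glucocorticoids were listed from general knowledge. With fluoxetine in Het mice 14 of the 25 (against 16.9% of all genes) were called higher and 3 lower, with a median of 0.28. The 3 lower calls lie near the share of all genes called lower, 16%. Klf9, a transcription factor, went from a mean of 7460 to 9080 normalized counts (log2 0.28 ± 0.04, adjusted p = 1.62e-06), with 8 of 10 libraries above all of vehicle. Sesn1, a stress-induced regulator of mTORC1, went from 1648 to 2036 (0.30 ± 0.05, adjusted p = 8.83e-06). The genes called lower were Per1, a clock gene, Dusp1, a phosphatase of MAP kinases, and Nedd9, an adaptor protein. Per1 differed by −0.49 ± 0.07 (adjusted p = 1.04e-06) and Dusp1 by −0.63 ± 0.11 (adjusted p = 9.76e-06) in Het mice, and by −0.62 ± 0.07 (adjusted p = 1.61e-08) and −0.56 ± 0.11 (adjusted p = 0.000269) in WT mice. Both genes also respond to neuronal activity. Of 10 activity-induced early genes, 9 were called lower with fluoxetine in each genotype, against 16% of all genes in Het and 5.06% in WT mice. Arc fell from a mean of 5047 to 1314 normalized counts in Het and from 5221 to 1731 in WT mice. With lithium 0 of those 10 were called in either genotype (limma, edgeR and DESeq2). Of all genes 1.9% were called higher and 1.07% lower in WT mice, and 5.3% and 3.84% in Het mice. An unadjusted p under 0.05 was found for 3 of the 10 in WT mice, against 17.7% of all genes. In Het mice 2 of the 10 had such a p, and the share of all genes is not given here. The part of neuronal activity in the values of Per1 and Dusp1 was not tested.

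In WT mice, where 3.14% of all genes were called higher and 5.06% lower, fluoxetine gave 2 higher and 2 lower calls among the 25, with Mertk, a receptor of phagocytosis (0.29 ± 0.07, adjusted p = 0.00552), and Map3k6, a kinase (0.56 ± 0.18, adjusted p = 0.0371), higher. The median was 0.13. With lithium in Het mice 7 of the 25 were called higher, against 5.3% of all genes, and 0 lower, with a median of 0.19. They were led by the small GTPase gene Rhou (0.32 ± 0.06, adjusted p = 0.000737), Lcn2, an iron-siderophore carrier (1.33 ± 0.31, adjusted p = 0.00523), Mfsd2a, a lipid transporter of the blood-brain barrier (0.33 ± 0.09, adjusted p = 0.0159), and Arrdc2 (0.37 ± 0.11, adjusted p = 0.0212). Lcn2 was scarce, with means of 5.46 and 18.5 normalized counts. With lithium in WT mice, where 1.9% of all genes were called higher, the 1 call was the cell cycle inhibitor gene Cdkn1a (0.59 ± 0.12, adjusted p = 0.00382). Klf9 was the gene of this list whose fluoxetine effect was called to differ between genotypes (0.24 ± 0.06, adjusted p = 0.0316). The fluoxetine count in Het mice was 12 to 15 higher under every alternative run, and the lithium count in Het mice was 3 in a fit of only the compared groups and 2 without the 16 libraries high in olfactory bulb markers.

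**Figure D4:**
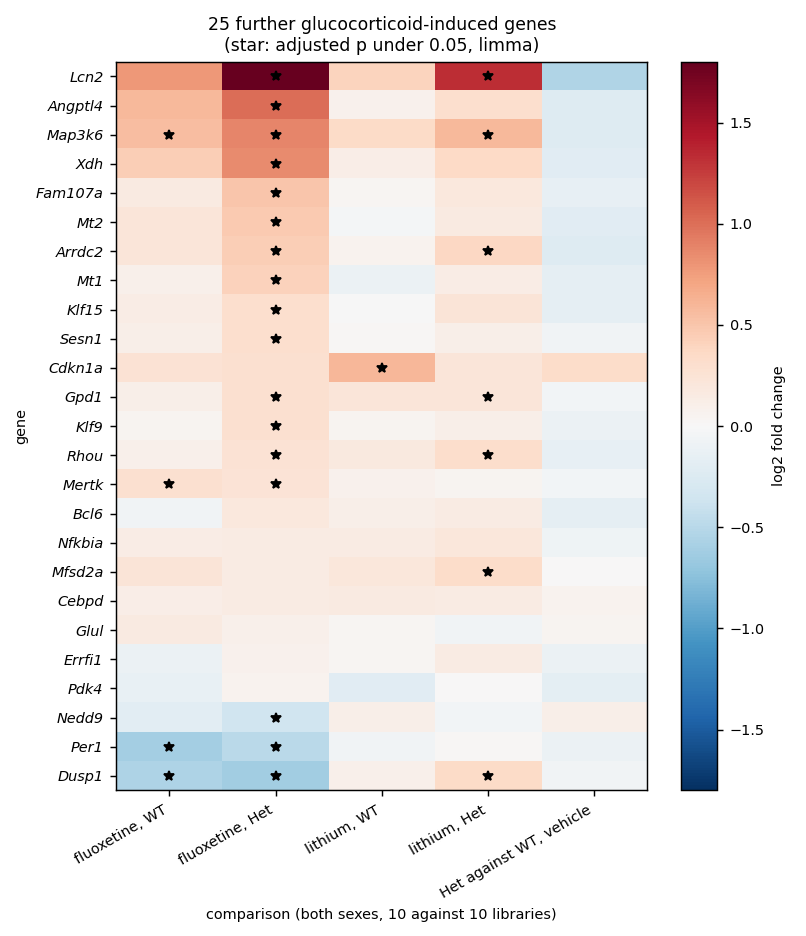
Log2 fold changes (color) of 25 further glucocorticoid-induced genes (rows, ordered by the fluoxetine value in Het mice) in 5 comparisons (columns), with a star where the adjusted p is under 0.05 (limma). Fluoxetine in Het mice has 17 stars, from Lcn2 at 1.79 to Dusp1 at −0.63, and Het against WT vehicle mice has none.

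Genes that act with the receptor had counts of calls near those of all genes with fluoxetine in Het mice, 16.9% higher and 16% lower. Of 11 chaperones that hold the receptor, 3 were called higher with fluoxetine in Het mice, Hsp90ab1 (0.26 ± 0.05, adjusted p = 7.22e-05), Hsp90aa1 (0.16 ± 0.04, adjusted p = 0.000578) and St13 (0.11 ± 0.03, adjusted p = 0.00188), with a median of 0.05. In the other 3 drug comparisons 0 of 11 were called with limma, edgeR or DESeq2. Of all genes 1.9% to 5.3% were called higher there and 1.07% to 5.06% lower (limma). In each, 1 or 2 of the 11 had an unadjusted p under 0.05. With lithium in WT mice 17.7% of all genes had such a p, and this share is not given here for the others. Of 10 coregulators, the coactivator genes Ncoa3 and Ep300 were lower with fluoxetine in both genotypes. Ncoa3 differed by −0.25 ± 0.04 (adjusted p = 1.19e-05) in Het and −0.23 ± 0.04 (adjusted p = 0.000114) in WT mice, and Ep300 by −0.21 ± 0.06 and −0.30 ± 0.06. Nrip1 (0.21 ± 0.04) and Ncoa1 (0.10 ± 0.04) were called higher in Het mice. Of 8 measured genes of the stress axis and of corticosteroid metabolism, Crhr1, a receptor of corticotropin-releasing hormone, was lower with fluoxetine in Het mice (−0.36 ± 0.10, adjusted p = 0.00585). Crhbp, which binds that hormone, was higher with lithium in WT mice (0.34 ± 0.07, adjusted p = 0.00436). Hsd11b1, which regenerates active glucocorticoid, had no called difference, with log2 values from −0.17 to 0.08 in the 4 drug comparisons.

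Some marker lists moved beside these differences. With fluoxetine in Het mice 7 of 10 endothelial, 5 of 8 leptomeningeal and 4 of 8 microglia markers were called lower, where 16% of all genes were. The counts for mural cell (2 of 8), cortical excitatory neuron (3 of 10) and astrocyte markers (2 of 10) were nearer that share. Called higher were 2 of 12 myelin, 2 of 10 striatal neuron, 1 of 10 cortical excitatory neuron and 1 of 10 astrocyte markers, near the 16.9% of all genes. The summed level of the endothelial markers ran from 7076 to 10821 normalized counts in Het vehicle and from 6450 to 8991 in Het fluoxetine libraries. The leptomeningeal sums ran from 4343 to 8663 and from 4163 to 8725, and the myelin sums from 35030 to 165971 and from 38414 to 211772. With lithium, 3 of 5 erythrocyte markers in WT and 4 of 5 in Het mice were called higher, against 1.9% and 5.3% of all genes. Their sums ran from 4630 to 7350 in WT vehicle and from 6627 to 15248 in WT lithium libraries. In Het mice they ran from 3252 to 8797 with vehicle and from 3525 to 14391 with lithium. No marker of any list was at 0 in all libraries of a group. The part of cell makeup in the results was not tested, beyond 2 fits. With the olfactory bulb and myelin scores of each library as covariates the number of induced genes called higher with fluoxetine was 7 in Het and 2 in WT mice. Without the 16 libraries high in olfactory bulb markers it was 7 and 1.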

How the data were processed

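Prefrontal cortex RNA of 60 mice was sequenced from poly(A) libraries of a stranded kit, per the labels' protocols. Salmon 0.11.2, DESeq2 1.19.11, R 3.6.0 and GRCm38 are named in the submitters' processing notes, with no role or order stated there. The deposited signal values are read counts per gene that the authors divided by 1 size factor per library, as seen in the values themselves, of which 100% were whole multiples of a step within 0.001 in 51 libraries. In the other 9 libraries the step lay too near 1 for the check of whole reads, so they stayed out of the count tests. Deposited totals ran from 28.08 to 30.54 M per library. Replicates of a group differed beyond sampling noise, with a chi-square per degree of freedom of 6.09 to 69.97 over 86 pairs. Symbols came from GENCODE release 21 for 18077 of 18088 genes.

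Values were tested as log2(value + 1) with limma 3.58.1 (R 4.3.3), over genes that reached 10 in 5 or more libraries, with 12 group means, 48 residual degrees of freedom and a variance trend. Called means a Benjamini-Hochberg adjusted p under 0.05 over the 17807 genes of a comparison, and fold changes on this scale understate those of low genes. The main values average both sexes, 10 libraries against 10. The edgeR 4.0.16 quasi-likelihood test and DESeq2 1.42.0 were run on recovered reads as alternatives, since the deposited values were normalized and not raw. Other alternatives were pseudocounts of 0.5 and 5, no filter, quantile normalization, equal totals, only the groups compared, marker scores as covariates, the replicate number as a block, and each library left out. On simulated data for fluoxetine in Het mice, both sexes, over 17807 genes, 98% of 100 genes changed by a log2 of 1 and 86% of 100 changed by 0.5 were recovered, with 12 false calls. Correlations used Python 3.11.15 with numpy 2.4.6, pandas 2.3.3 and scipy 1.17.1. Promoter windows came from RefSeq on GRCm38.p6.

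The 10 genes and all gene lists were chosen with earlier results of these data known. Named genes are the 10 members, Chd8, up to 4 called members of each other list per comparison by smallest p, the 10 genes most like the mean of the 8 induced genes and the 5 most like each receptor. Nedd9, Arc, Hsd11b1, the single cell type markers and the genes on opposite strands were named after their values were seen.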

Additional observations from a re-analysis of the deposited data

Results flagged for a closer look

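Within each group of 5 libraries, the gap between the highest or lowest value and its nearest neighbor was set against the whole range of the group, with a critical ratio of 0.71. Of 120 sets of a gene and a group, 10 were past it, in 8 libraries, and at this critical value chance alone flags about 0.05 of such sets. No explanation was tested.

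For Nr3c1, WT fluoxetine female replicate 5 was low at 2433.62 normalized counts, with the next library at 2744.86. Het fluoxetine male replicate 2 was high at 3214.82, with the next at 2712.45. For Fkbp5, WT fluoxetine male replicate 5 was high at 1701.04 (next 1295.4) and Het fluoxetine female replicate 1 was low at 1177.94 (next 1704.69). For Sgk1, WT lithium female replicate 2 was high at 1717.83 (next 1607.89) and Het vehicle male replicate 3 at 1637.13 (next 1402.25), while Het fluoxetine female replicate 1 was low at 1655.69 (next 2332.93). For Plin4, WT lithium male replicate 5 stood at 90.9975 (next 35.8519) and Het lithium female replicate 5 at 104.377 (next 30.0177). For Sult1a1, WT fluoxetine male replicate 5 stood at 556.433 (next 358.907). The same library thus appeared for Fkbp5 and Sult1a1 in WT fluoxetine males, and the same library was low for Fkbp5 and Sgk1 in Het fluoxetine females.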

How the results depend on the processing

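The number of the 8 induced genes called higher with fluoxetine in Het mice was 7 under every alternative run. In WT mice it was 3 with fluoxetine, and 1 without the 16 libraries high in olfactory bulb markers, a choice made after seeing the scores. With lithium in WT mice it was 0, and 1 with marker scores as covariates or only the groups compared, and 0 to 1 with 1 library left out. With lithium in Het mice it was 3, and 5 with DESeq2, limma on the 51 libraries or quantile normalization, 0 without the 16 libraries, and 3 to 5 with 1 library left out. The genotype by fluoxetine interaction had 0, and 2 with DESeq2, 1 with edgeR, 1 with limma on the 51 libraries, and 0 to 1 with 1 library left out. With the replicate number as a block it had 1. Across the 190 values of the 10 genes, 36 were called, and none of these turned sign. The calls lost were 18 without the 16 libraries, 9 with only the groups compared and 0 to 2 under each other alternative, beside 60 of 540 with 1 library left out. Of values not called, 25 turned sign without the 16 libraries. The cause of each change was not tested. The median correlation of deviations was 0.0011 between libraries with the same replicate number and −0.0018 between those with other numbers. Of the same-number pairs 59 of 330 were over 0.1, and 18 of 60 libraries correlated best with their own number. No chance level was computed for these counts, so they do not settle whether the numbers pair libraries. With the replicate number as a block, 0 calls of the 10 genes were lost and 3 gained. Over all genes the block gave 184 higher and 249 lower calls of the genotype by fluoxetine interaction, against 129 and 174 without it. Over all genes, fluoxetine in Het mice gave 3003 higher and 2850 lower calls, against 2027 and 3539 at equal totals and 1591 and 1561 without the 16 libraries. In WT mice it gave 560 and 901, against 387 and 1028 at equal totals, 800 and 846 with quantile normalization, 866 and 1220 with only the groups compared, 268 and 593 with covariates, 203 and 567 without the 16 libraries, and 267 and 571 (limma), 286 and 570 (edgeR) or 363 and 724 (DESeq2) on the 51 libraries. The genotype by fluoxetine interaction gave 129 and 174, against 705 and 760 with DESeq2, 415 and 570 with edgeR, 465 and 510 with limma on the 51 libraries, 11 and 32 with only the groups compared, 0 and 3 without the 16 libraries, 65 and 284 at equal totals, 50 and 182 with quantile normalization, and 0 and 6 with covariates. Lithium in WT mice gave 339 and 190, against 739 and 546 with only the groups compared, 495 and 335 with covariates, 118 and 61 without the 16 libraries, and 114 and 44 (limma), 115 and 47 (edgeR) or 216 and 100 (DESeq2) on the 51 libraries. Lithium in Het mice gave 944 and 683, against 598 and 461 with only the groups compared, 567 and 373 with covariates, 348 and 229 without the 16 libraries, and 553 and 417 (limma) or 562 and 437 (edgeR) on the 51 libraries. In the 250 bases before the start alone, 5.84% of all windows held the response element core and 16.1% the single arm.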
